A study of Rattus norvegicus with 2 samples.

Results

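Connexins and aquaporins form the channels through which glia, neurons and epithelia of the brain exchange ions, small molecules and water. Their transcripts were described here in the hypothalamus of spontaneously hypertensive rats (SHR, an inbred strain whose blood pressure climbs with age). The 7 genes are Gja1, Gjb1, Gjb2, Gjb6 and Gjd2, which encode the connexins Cx43, Cx32, Cx26, Cx30 and Cx36, and the aquaporin genes Aqp1 and Aqp4. They were taken by name, and every probe whose RefSeq accession belongs to one of them was used: 8 of the 45591 rat probes, with 28 spots on each array, and 7 of 39500 genes and transcripts. The male group was a single RNA pool of 5 SHR males, and the female group a single pool of 5 SHR females. All rats were 9 weeks old with no treatment named, each gave 100 ng of RNA to its pool, and each pool was hybridised to 1 single-colour Agilent array. Both pools were of this strain, so strains were not compared.

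With 1 array per pool there was no replicate and no test, and sex cannot be told apart from the pool, the labelling reaction or the array position. Every value below describes these 2 pools. The number of arrays limits the precision. The scanner software called 71.6% of the rat spots of the male array and 73.0% of those of the female array well above background, and none was saturated. Signals were divided by the array's 75th percentile (2203 units for males, 2254 units for females), and a difference is the log2 signal of the male pool minus that of the female pool, so a positive value means more signal in males. The median difference was -0.016 over the 24140 genes and transcripts seen on both arrays, that is, well above background on each. The hypothalamic list of 15 genes was detected, 14 on both arrays and Otp on the female array only, among them Avp, the vasopressin gene, at a scaled log2 level of 4.96 in the male pool, against 4.81 in the female pool.

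As background, connexins assemble into hemichannels that dock with those of a neighbouring cell to form gap junctions. Astrocytes are coupled mainly through Cx43 and Cx30 and oligodendrocytes in part through Cx32, while Cx36 forms electrical synapses between neurons and Cx26 is known from the leptomeninges. Aquaporin tetramers let water cross a membrane: Aqp4 lines the end-feet of astrocytes around blood vessels and the ependymal surface, and Aqp1 is found in the choroid plexus epithelium and in red blood cells.

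All 7 genes were well above background in both pools on their brightest probe. On that probe none was 2-fold apart or more, a size reached by 4.17% of 26109 measured genes and transcripts (2.54% with the male pool higher and 1.64% with it lower). Without spots in patches of the slide (defined under Gjb2), the counts behind these shares fell from 662 higher and 428 lower to 111 and 33. Gjb2 was the member with the largest difference, 1.50-fold in favour of the male pool. Gjb1, Aqp4 and Aqp1 were higher there by 1.29-fold, 1.20-fold and 1.18-fold, Gja1 and Gjb6 were within 1.05-fold, and the dim Gjd2 was 1.35-fold lower. With a log2 difference of 0.32 as the limit, 2 of the 7 were higher in the male pool, where 5.39% of all genes were, and 1 was lower, where 3.82% of all genes were. Counting any size, 6 of the 7 were higher in the male pool, against 45% of all genes, and the median over the 7 was 0.24.

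Noise was judged in several ways. Repeat spots of a probe gave a technical SD for the difference of 1 spot, which was 0.038 for spots above the 75th percentile and 0.056 for log2 levels of -2 to 0 relative to it. It was 0.11 for levels of -4 to -2, 0.23 for levels of -6 to -4, and 0.21 for the dimmest (under -6), an estimate resting on 27 probes. The scanner software's own error model was wider, at 0.20 for the difference of a bright spot. Where a gene had a second named probe at -2 to 0, the 2 probes' differences were a median of 0.057 apart over 516 genes. The 90th percentile of that gap was 0.15, and it was 0.28 for second probes at -4 to -2 and 0.66 under -6. None of these measures covers the spread between rats or between labellings.

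**Figure D1:**
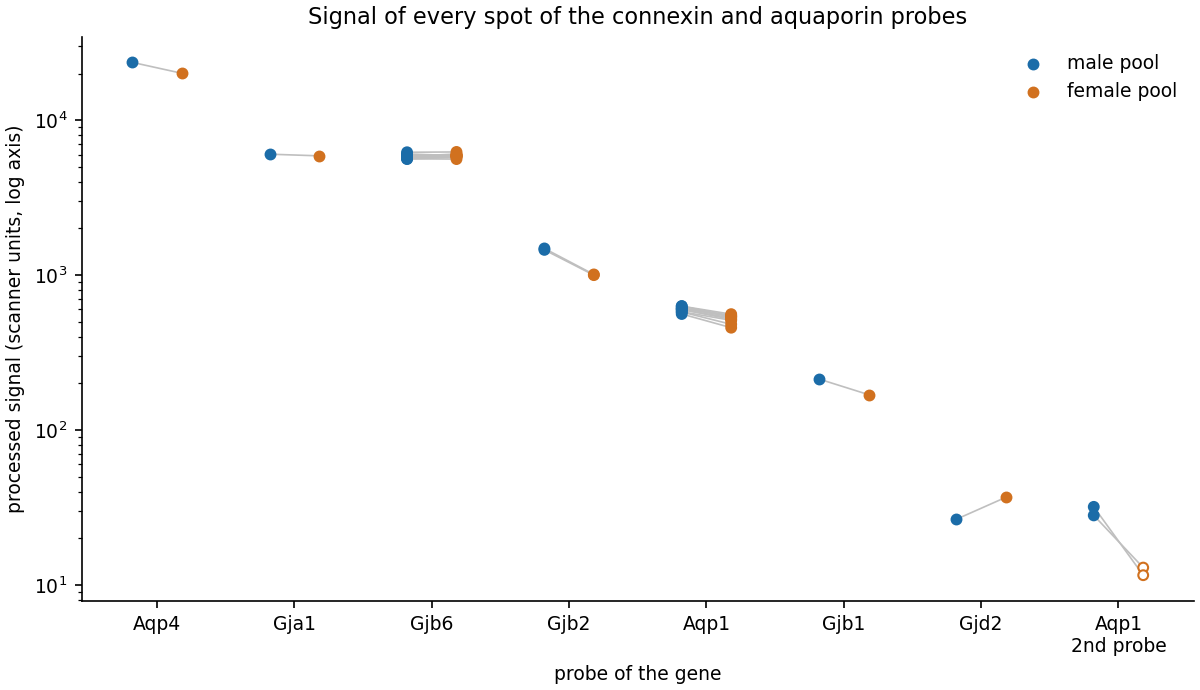
Processed signal in scanner units (log axis) of every spot used for the 8 probes, male pool left and female pool right of each pair; lines join the same spot on both arrays and open points were not well above background. Both Gjb2 spots are near 1470 units in the male pool and near 1004 units in the female pool, while the Gjb6 spots overlap between the pools.

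Gja1 encodes Cx43, the principal gap junction protein of astrocytes. Its single spot gave 6034 units in the male pool and 5886 units in the female pool. After scaling, the difference was 0.069, against a technical SD of 0.038 and a software error of 0.20, so it lay within the second measure. It was 0.039 when the arrays were centred on their medians instead (median centring) and 0.11 with normexp, a model-based background correction that adds a fixed offset and so shrinks differences of dim spots. Of 4645 genes as bright, 35.3% were at least as far apart.

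Gjb6 encodes Cx30, the other astrocyte connexin, and was measured on 10 spots. These ran from 5616 to 6208 units with a median of 5843 in the male pool, and from 5611 to 6238 units with a median of 5897 in the female pool. The pools overlapped almost completely. After scaling, the mean difference was 0.020 with an SD over spots of 0.027, and with median centring it took the opposite sign, at -0.010. Of genes as bright, 78.3% were at least as far apart.

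Gjb2 encodes Cx26, which is known from astrocytes and from the fibroblasts of the pia and arachnoid. Its 2 spots read 1455 and 1485 units in the male pool and 999 and 1009 units in the female pool. The pools did not overlap, and the spots differed by 0.58 and 0.59. The mean of 0.58 exceeded the technical SD of 0.039 for 2 spots and the software error of 0.20. Of 5215 genes of like signal, 0.499% were at least as high in the male pool. Neither spot was in a patch, that is, a stretch of the slide where neighbouring spots of other probes were also at least 2-fold apart in 1 direction.

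Gjb2 and Gjb6 are neighbours on chromosome 15 of the GRCr8 assembly, with no other gene listed between them, while their differences were 0.58 and 0.020. Their upstream sequences, from the RefSeq promoter table (GRCr8, minus strand, the 250 bases before the annotated start), are shown because the genes share a locus. They are at chr15:35381954-35382203 for Gjb2 and chr15:35410139-35410388 for the more distal of the annotated starts of Gjb6. Capitals mark a GC box, spelt GGGCGG. They also mark TATAAA, the core of a TATA box. The letters CCAAT and TTAAAA are marked likewise, and every motif was sought on both strands.
Gjb2: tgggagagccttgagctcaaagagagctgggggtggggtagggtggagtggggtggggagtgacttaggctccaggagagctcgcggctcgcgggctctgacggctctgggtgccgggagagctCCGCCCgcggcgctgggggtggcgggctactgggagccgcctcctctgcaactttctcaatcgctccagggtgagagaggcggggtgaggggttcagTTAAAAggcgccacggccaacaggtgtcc
Gjb6: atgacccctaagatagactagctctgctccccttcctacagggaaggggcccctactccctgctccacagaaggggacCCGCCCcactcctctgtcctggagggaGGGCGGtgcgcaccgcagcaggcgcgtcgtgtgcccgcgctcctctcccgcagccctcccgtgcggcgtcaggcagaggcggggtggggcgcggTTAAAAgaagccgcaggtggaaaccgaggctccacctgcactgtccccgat
Both windows were rich in G and C, at 67.2% for Gjb2 and 68.0% for Gjb6, against a median of 51.2% over 33469 rat promoters. Each held a TTAAAA, beginning 29 bases before the start of Gjb2 and 51 bases before that of Gjb6, and at least 1 GC box. TTAAAA was added to the search after the sequences had been read. A motif picked this way is bound to be frequent in the windows read. Of the 9 start windows of the 7 genes, 6 held it, and 19.0% of all promoters did, but for that reason the comparison is no test. These were 1 window of each of the 5 connexin genes and the second window of Aqp4, which is not printed, while the second window of Gjb6 and the windows printed for Aqp1 and Aqp4 did not hold it. Over all promoters, a GC box was in 30.5%, CCAAT in 34.0% and TATAAA in 12.9%. No marked motif overlapped another in the windows printed. A match describes the letters only.

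Fibroblast genes of the meninges were higher in the male pool too. The list held 12 genes, all of them higher in males, by 0.11 to 1.82 (median 1.21), and 7 by 2-fold or more. The mean signal of the 12 was 48.1% of the 75th percentile in the male pool, against 23.8% in the female pool. Col1a1, a fibrillar collagen gene, was at 1.20 on its brightest probe and 1.39 on the other, and Slc22a6, an organic anion transporter gene, was at 1.48. Their part in the Gjb2 difference was not tested. In bulk RNA of this kind, more cells of a type and more RNA per cell cannot be told apart.

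Gjb1 encodes Cx32, with which oligodendrocytes join to each other and to astrocytes. Its single spot gave 213 units in the male pool and 169 units in the female pool. The difference of 0.37 was above the technical SD of 0.11 and the software error of 0.21, and it was 0.29 with normexp. Of 6016 genes of like signal, 3.24% were at least as high in the male pool. Gjb1 lies on the X chromosome. Of 381 X-linked genes seen on both arrays, 15 were above Gjb1.

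Gjc3 (Cx29), a connexin gene known from rodent myelin, gave 273 units in the male pool and 287 units in the female pool, a difference of -0.036 within its technical SD of 0.11. The oligodendrocyte list had all 14 genes higher in males, with a median of 0.11 and a highest value of 0.29 for Ugt8, the enzyme gene of myelin galactolipids. Mbp, the myelin basic protein gene, was at 0.079 on its brightest probe and -0.16 on the other. The part of these genes in the Gjb1 difference was not tested.

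Gjd2 encodes Cx36, the connexin of electrical synapses. It was close to the background, with 26.5 units in the male pool and 36.7 units in the female pool, over local backgrounds of 31 and 32 units. The difference was -0.44, with a technical SD of 0.21 and a software error of 0.32. It was -0.057 with normexp, and the spot lay in a patch, so no value remained without patches. Among 2414 genes as dim, 6.34% were at least as low in the male pool. Among the neuron genes listed, 13 were lower in males and 1 was higher, with a median of -0.10. Gad2, a GABA synthesis gene, was at -0.27, Slc32a1, the vesicular GABA transporter gene, at -0.25, and Snap25, a synaptic release gene, at -0.15. Their part in the Gjd2 value was not tested.

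Aqp4 is the principal water channel of astrocytes. Its single spot gave 23625 units in the male pool and 20093 units in the female pool, a difference of 0.27. That was above the technical SD of 0.038 and the software error of 0.20. Of genes above the 75th percentile, 0.517% were at least as high in the male pool. Over the alternative settings it ran from 0.24 to 0.27.

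Most astrocyte genes of the list were nearer to 0 than Aqp4. Of 14 in the list, 12 were higher in males and 2 were lower, and the median was 0.049 (0.018 with median centring). The pan-astrocyte marker Aldh1l1 was at 0.093, whereas Gfap, the intermediate filament gene, was at 0.34 and Sox9, a glial transcription factor gene, at 0.22, with 0.44, 0.23 and 0.79 on its other probes. Genes that anchor Aqp4 at the end-foot or act beside it had 8 members higher in males, 4 lower, and a median of 0.023 that took the opposite sign with median centring. Kcnj10, a potassium channel gene of the end-foot membrane, was at 0.34 with a technical SD of 0.23, and Sspn, the sarcospan gene of the dystrophin complex, was at 0.20. The ependyma and tanycyte list, whose cells also carry Aqp4, had 9 genes higher in males, 1 lower, and a median of 0.24. Rarres2, the chemerin gene, was at 0.48, with 0.67 on its second probe. The part of these cells in the Aqp4 difference was not tested.

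Aqp1, the water channel of choroid plexus and red cells, had a probe with 10 spots, of which 1 had an outlier flag and was left out. The other 9 ran from 561 to 630 units with a median of 599 in the male pool, and from 457 to 559 units with a median of 529 in the female pool. The lowest male spot was above the highest female spot. All 9 spots were higher in the male pool, by 0.19 to 0.33, with a mean of 0.24 and an SD over spots of 0.046. Of genes of like signal, 2.32% were at least as high in the male pool. The second probe, on 2 spots, averaged 30.0 units in the male pool, against 12.2 units in the female pool, where it was not well above background. With the female pool raised to the lowest signal that counted as such, the male pool was at least 2.38-fold higher for Aqp1 on that probe. Its plain difference of 1.33 became 0.38 with normexp, so the probes had the same direction but not the same size.

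Markers of the cells known for Aqp1 stood as follows. Ttr, the transthyretin gene of choroid plexus, was at 0.23 over 8 spots. The choroid plexus list had 6 higher in males among the 8 seen on both arrays, 2 lower, and a median of 0.18 (0.094 with normexp). For Kcnj13, a potassium channel gene of that epithelium, the male pool was at least 3.82-fold higher; the klotho gene Kl was seen on the female array only, and Slc4a5 and Cldn2 on neither. The 5 red blood cell genes seen on both arrays were all higher in males (median 0.84). Hbb, a haemoglobin gene, was at 0.87 and Ahsp, a haemoglobin chaperone gene, at 0.88, while Slc4a1, the anion exchanger of the red cell membrane, was seen on the male array only, with a bound of 0.67. Mean signal of the 5 was 471% of the 75th percentile in the male pool, against 274% in the female pool. The part of either cell type in the Aqp1 difference was not tested.

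The windows before the starts of the aquaporin genes are shown because both genes were higher in the male pool on their brightest probes. They are at chr4:85812534-85812783 on the plus strand for Aqp1 and chr18:6798843-6799092 on the minus strand for the more distal of the annotated starts of Aqp4 (GRCr8, RefSeq). The capitals have the meaning given above.
Aqp1: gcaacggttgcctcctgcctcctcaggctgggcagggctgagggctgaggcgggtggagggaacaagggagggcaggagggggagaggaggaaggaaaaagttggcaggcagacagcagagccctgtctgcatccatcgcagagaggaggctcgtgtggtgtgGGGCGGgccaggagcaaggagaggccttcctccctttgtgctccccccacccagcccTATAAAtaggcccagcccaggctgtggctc
Aqp4: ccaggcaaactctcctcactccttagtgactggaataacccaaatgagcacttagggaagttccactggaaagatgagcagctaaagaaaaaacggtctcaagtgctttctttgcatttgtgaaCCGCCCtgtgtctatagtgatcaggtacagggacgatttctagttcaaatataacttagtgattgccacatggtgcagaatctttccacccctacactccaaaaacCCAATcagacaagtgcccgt
The Aqp1 window held a TATAAA beginning 30 bases before the start and a GC box, and 65.2% of its bases were G or C. The Aqp4 window held a CCAAT beginning 20 bases before the start, 1 GC box and no TATAAA, and 44.8% of its bases were G or C. The marked letters differed between the windows, apart from the GC box.

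**Figure D2:**
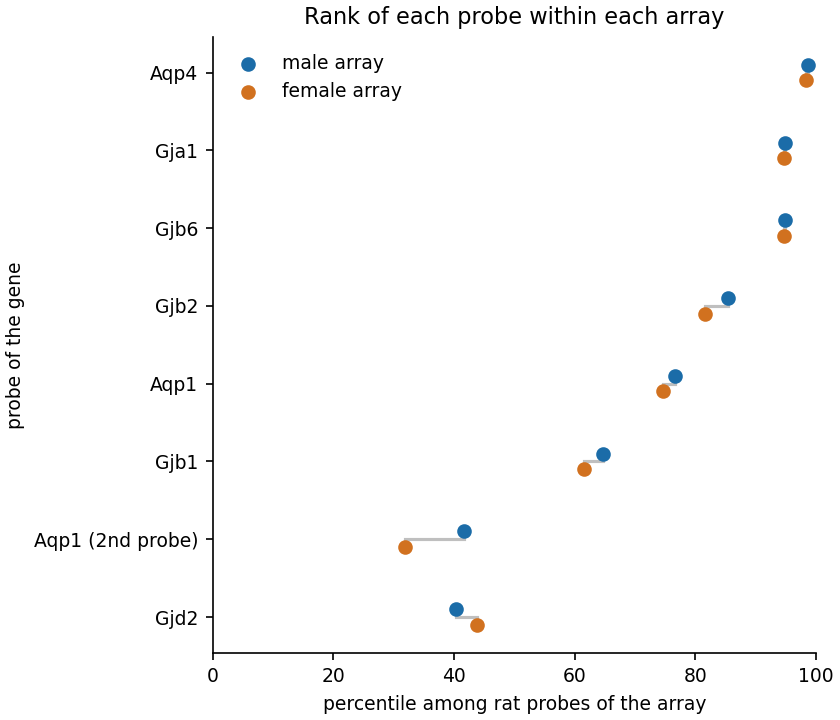
Percentile of each of the 8 probes among 45591 rat probes of the same array (horizontal axis), male array in blue and female array in orange. Aqp4, Gja1 and Gjb6 lie above the 94th percentile on both arrays, and Gjb2 is 3.84 percentile points higher on the male array.

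Ranked among the 45591 probes of its array, Aqp4 was at percentile 98.7 in the male pool, against 98.4 in the female pool, ranks 597 and 727 from the top. Gja1 was at 95.0 in males and 94.7 in females, and Gjb6 at 94.8 in males and 94.7 in females. Gjb2 was at 85.5 in the male pool, against 81.6 in the female pool. Aqp1 was at 76.6 in males and 74.7 in females, Gjb1 at 64.7 in males and 61.6 in females, and Gjd2 at 40.3 in males and 43.9 in females. These ranks describe probe brightness, which depends on how well a probe binds as well as on the transcript. The 2 probes of Aqp1, at 76.6 and 41.6 in the male pool, show how far apart 2 probes of a gene can be, so no order of the genes' transcript levels was drawn from them.

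**Figure D3:**
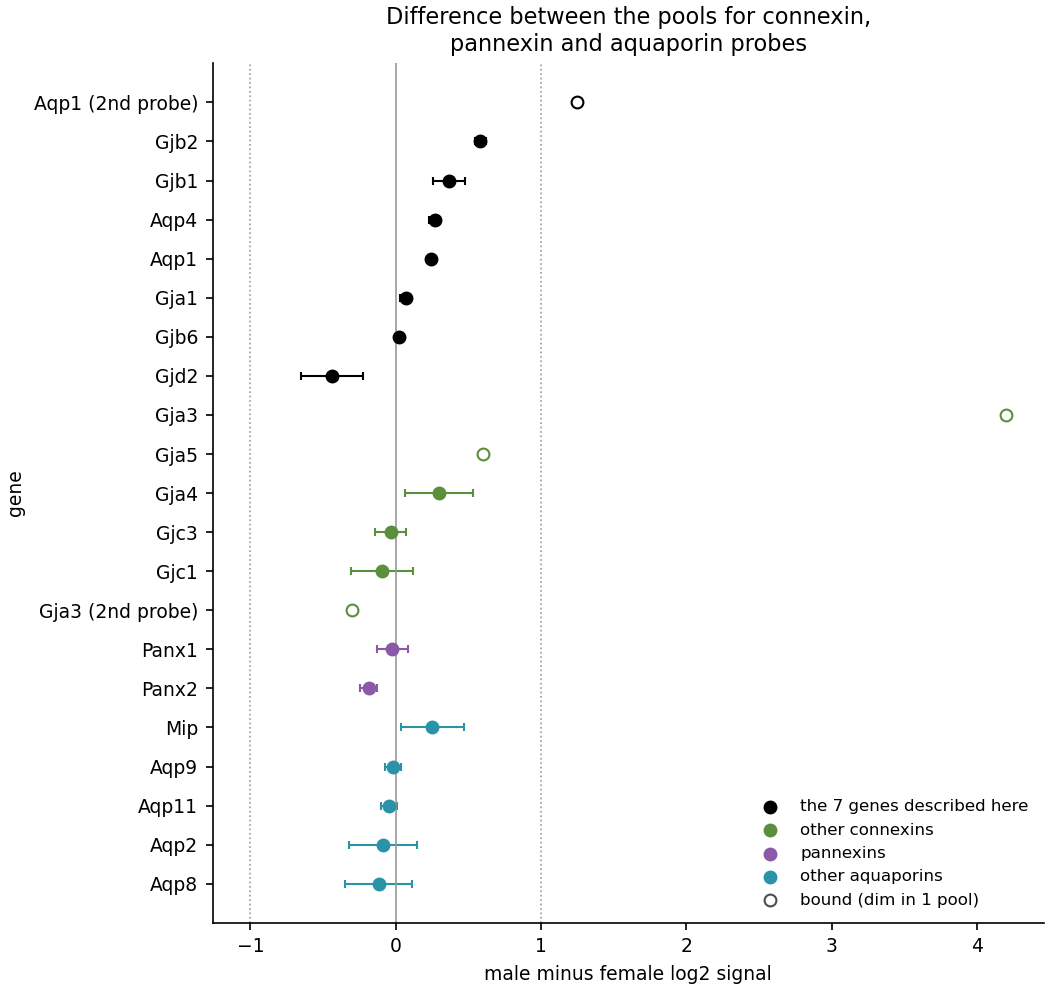
Male minus female log2 signal of probes well above background on at least 1 array, for the 7 genes described here and for the other connexin, pannexin and aquaporin genes named in the text; bars are the technical SD of the probe's mean, open points are bounds and dotted lines mark 2-fold. Gjb2 at 0.58 is the highest filled point and Gjd2 at -0.44 the lowest.

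Of the other connexin genes, 12 of 15 had a probe, 5 were seen on both arrays, 2 of them higher in males and 3 lower. The median of -0.036 took the opposite sign with normexp, without patches, with no filter on dim probes and with dim members at their bound. Gja4 (Cx37) and Gja5 (Cx40) encode connexins of the arterial endothelium. Gja4 was at 0.30 with a technical SD of 0.23. Gja5 was seen on the male array only, with a bound of 0.60. That was a dim single spot of 20.3 units in the male pool and 13.7 units in the female pool. The second Gja5 probe was well above background on neither array. The endothelial list had 8 genes higher in males, 4 lower, and a median of 0.085 (0.19 without patches). Gjc1 (Cx45), of smooth muscle and some neurons, was at -0.093 within its technical SD of 0.21.

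Gja3, a lens connexin gene, was the exception in size on 1 of its probes. Gja3 (Cx46) gave 236 units in the male pool and 13.2 units in the female pool on its brightest probe, a fold of at least 18.4 in favour of males. This single spot was not in a patch, and its plain difference of 4.20 became 1.70 with normexp. The second Gja3 probe, at 14.5 units in the male pool and 19.0 units in the female pool, was seen on the female array only and had a bound of -0.30. The probes of Gja3 thus had opposite directions.

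Pannexins form large-pore membrane channels related in shape to connexin hemichannels. Panx1 was at -0.023 and Panx2, the neuronal form, at -0.19, with 1257 units in the male pool and 1464 units in the female pool. Of the other aquaporin genes, 5 of 10 were seen on both arrays, 1 of them higher in males and 4 lower, and the median of -0.044 took the opposite sign with normexp. Aqp9, a glycerol-conducting channel, was at -0.019, with 1967 units in the male pool and 2040 units in the female pool. Aqp11, an intracellular channel, was at -0.044, Aqp2, the vasopressin-regulated channel of the kidney, at -0.087, and Aqp8 at -0.12, each within its technical SD. Mip, the lens aquaporin gene, was at 0.25 on a dim probe with a technical SD of 0.21. Aqp3, Aqp5, Aqp6, Aqp7 and Aqp12a were well above background on neither array.

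Genes for proteins that bind or modify connexins were close between the pools. Of 14 with a probe, 7 were higher in males and 7 lower, with a median of -0.0081 that took the opposite sign with normexp. Tjp1, the ZO-1 scaffold that binds the tail of Cx43, was at -0.026. Ccn3, a secreted matrix protein gene whose product can bind Cx43, was at 0.24, and the kinase gene Csnk1d at -0.15, with -0.10 on its second probe. No gene of this list reached a log2 difference of 0.32 in either direction.

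**Figure D4:**
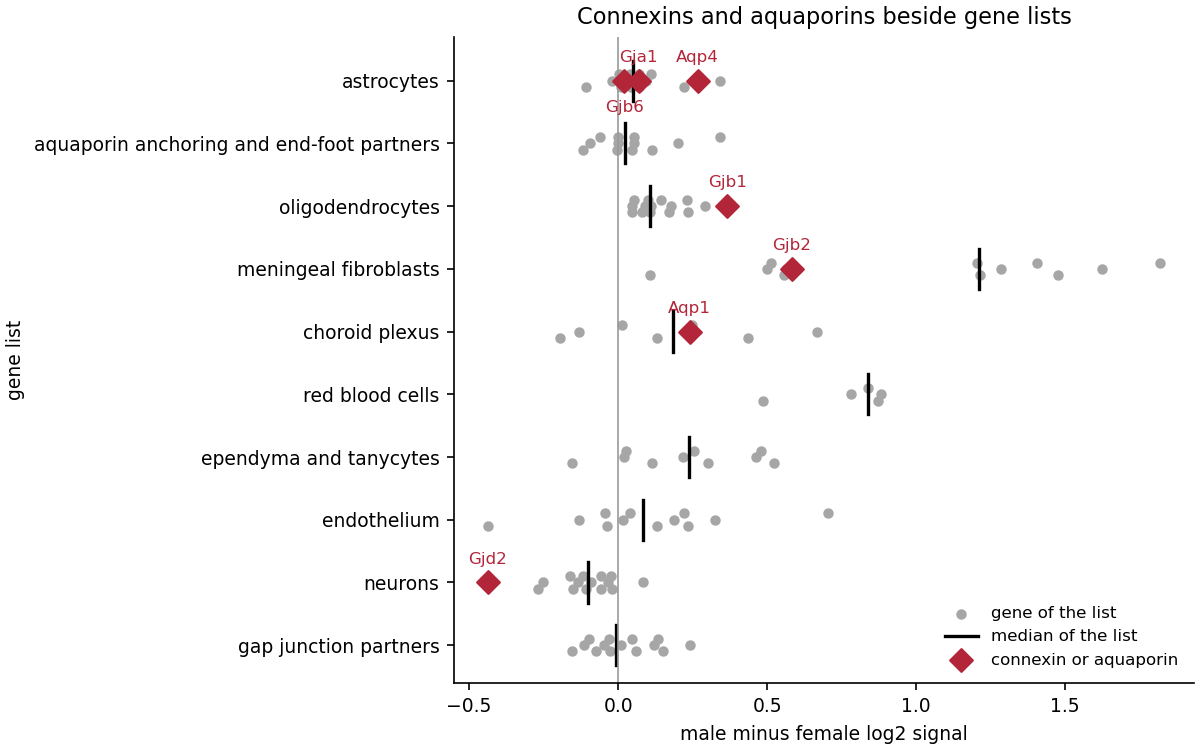
Male minus female log2 signal of the genes of each list seen on both arrays (grey), the median of the list (black bar), and the 7 genes (red), each drawn in the row of a cell type it is known from. Gjb1 at 0.37 lies above all 14 oligodendrocyte genes, Gjd2 at -0.44 below all 14 neuron genes, and Gjb2 at 0.58 below the meningeal median of 1.21.

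Set beside the lists, the members fell in different places. Gja1 at 0.069 and Gjb6 at 0.020 stood on either side of the astrocyte median of 0.049. On the brightest probe of each gene, Aqp4 was above all astrocyte genes of the list but Gfap. Gjb1 was above all 14 oligodendrocyte genes, and Gjd2 below all 14 neuron genes, with its large technical SD. Aqp1 was between the medians of the choroid plexus and red blood cell lists. Gjb2 was below the meningeal median and above that of every other list but the red blood cells. Gjb2 was also above all 14 astrocyte genes on their brightest probes, of which Gfap at 0.34 was the highest. On its other probes Sox9 was at 0.44, 0.23 and 0.79, so these placements depend on the probe. These positions are descriptions of 2 arrays and were not tested.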

How the data were processed

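RNA pools of male and female SHR hypothalamus were each measured on 1 Cy3 array, and both arrays shared a slide and a scan. Per the file headers, the deposited intensity of a spot is the processed signal of Feature Extraction 11.5.1.1 (protocol GE1_1105_Oct12, design build rn4), background-subtracted and not scaled between arrays. The version in the submitters' processing notes is Feature Extraction 9.1. The values of the deposited series matrix equalled this intensity as a percent of the array's 75th percentile.

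The 664 spots flagged as outliers on an array were dropped. Each signal was divided by the 75th percentile of its array, put on the log2 scale and averaged over a probe's spots. A probe was called well above background with over 50% of its spots so called. Genes with several probes were represented by the brightest, and all probes of the 7 genes are given. RefSeq accessions were matched to GRCr8 symbols for 21106 of 45591 probes (46.3%). A pool in which a probe was dim was raised to the lowest signal well above background, 15.1 units (male) or 12.9 units (female), and the fold is then "at least". A spot was in a patch when 2 or more of its 18 nearest measured spots of other probes were at least 2-fold apart in 1 direction. No test was run. The functions were tested on simulated data. Alternatives included normexp (limma 3.58.1, offset 50, on median spot signal, as the files hold no mean signal), other scalings and other probe summaries.

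The 7 genes and all gene lists were chosen with earlier results of these data known. Beyond the 7, any gene of the connexin, pannexin and aquaporin lists could be named. From each other list, genes named were those at least 2-fold apart outside patches or else the 2 farthest apart, plus defining markers; not all are printed, and others, such as Tjp1, Avp and Slc4a1, were added after their values were seen. Genes with a like pattern were not sought, since 2 arrays give no such measure. Some genes of the lists count in list values but are not reported here by name.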

Additional observations from a re-analysis of the deposited data

How the results depend on the processing

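No paired analysis was possible because each sex had 1 array. Of 349 recomputed values, 309 moved by less than the technical SD, or by less than 1.5 times for counts, and 40 moved by more. Of the 55 recomputed member differences, 2 did so, both with normexp: Gja1 became 0.11 and Gjd2 -0.057. Gjb6 took the opposite sign with median centring (-0.010). Gjd2 gave no value without patches. The count of members at least 2-fold apart was 0 in every setting. Counts over all genes at least 2-fold higher and lower in the male pool (662 and 428) were 305 and 186 with normexp, 111 and 33 without patches, and 1481 and 1172 with no filter on dim probes.

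List medians moved for other connexins (0.10 without patches, 0.27 with no filter, 0.24 with dim members at their bound). They also moved for ependyma and tanycytes (0.16 with normexp, 0.17 with the mean over probes), meningeal fibroblasts (0.94 with normexp) and endothelium (0.19 without patches). The choroid plexus median (0.094 with normexp) and the astrocyte median (0.018 with median centring) changed too but did not count as moved.

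Ranks moved in the deposited matrix, which holds fewer, brighter spots. In it, male and female percentiles were 92.5 and 92.1 for Gja1, 47.5 and 42.9 for Gjb1, 78.4 and 72.7 for Gjb2, 92.3 and 92.1 for Gjb6, 11.3 and 16.5 for Gjd2, 65.2 and 62.4 for Aqp1, and 98.1 and 97.6 for Aqp4. With normexp they were 94.5 and 94.0 for Gja1, 65.5 and 62.4 for Gjb1, 84.5 and 80.4 for Gjb2, and 99.0 and 98.7 for Aqp4. Without patches they were 65.6 and 62.6 for Gjb1, and the female one was 94.6 for Gja1. The causes of the other moves were not tested. Signals near the background, such as Gjd2 and the second Aqp1 probe, give less certain differences than brighter ones.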

Other observations

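The endothelial list, with a median of 0.085 over 12 genes, held values on both sides of 0. Kdr, a VEGF receptor gene of endothelium, gave 86.0% of the 75th percentile in the male pool, against 52.8% in the female pool, a difference of 0.70 on a single spot outside patches. Cldn5, a tight junction gene of the same cells, was at 0.13, and Vwf, the von Willebrand factor gene, at 0.016. Abcb1a, the drug efflux pump gene, was at -0.44 on a dim spot in a patch.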
